A study of Caenorhabditis elegans with 45 samples.

Results

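The genes fat-1 to fat-7 of the nematode Caenorhabditis elegans encode its fatty acid desaturases, the enzymes that put double bonds into fatty acids. They were chosen by symbol, and all 7 symbols were found among the 19690 genes with an estimated count in any library. RNA-seq of poly(A)-selected RNA from whole day 1 adult hermaphrodites was deposited for 15 groups of 3 libraries. Of these, 8 groups were parental strains grown by selfing, namely the laboratory strain N2 and 7 wild strains (CB4856, DL238, ECA701, ECA722, EG4348, QX1211 and XZ1516). The other 7 groups were F1 offspring of males of each wild strain and N2 mothers that carried a fog-2 mutation, which leaves XX animals without sperm of their own and so makes them pseudo-hermaphrodites. The labels give the wild strains and the F1 as wildtype, and F1 plates had their males picked off by hand.

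The genotype label of the N2 parental libraries gives a fog-2 deletion and the strain CB4108, whereas the growth protocol describes N2 that was selfed. Transcripts of fog-2 were at 36.9 to 45.3 CPM (estimated counts scaled to a common library size) in the 3 libraries labelled N2, within the 31.7 to 46.8 CPM of the 21 wild parental libraries and above the 20.9 to 32.2 CPM of the 21 F1 libraries. These counts show no loss of the fog-2 transcript in the libraries labelled N2. They cannot settle the genotype, since a deletion can leave a transcript. Every direction below is therefore relative to the libraries labelled N2. Library totals ran from 24.45 M to 90.515 M estimated counts with a median of 63.56 M. The labels do not say that the replicates of a group came from separate populations, so p-values measure the spread between these libraries, which may be technical.

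Worms make their polyunsaturated fatty acids themselves, by a chain of desaturation and elongation steps that runs mostly in the intestine. The delta-9 desaturases start the chain: FAT-5 acts on palmitic acid, and FAT-6 and FAT-7 act on stearic acid to give oleic acid. FAT-2, the delta-12 desaturase, turns oleic into linoleic acid, FAT-3 is the delta-6 and FAT-4 the delta-5 desaturase of the later steps, and FAT-1 is the omega-3 desaturase, an enzyme that mammals lack. Loss of a single delta-9 gene is tolerated because the others cover for it, and fat-7 in particular is known to respond strongly to diet, cold and the nuclear receptors NHR-49 and NHR-80.

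In the WBcel235 annotation, which is the ce11 build named in the submitters' processing notes, 5 of the 7 genes lie on chromosome IV. The pair fat-4 (WBGene00001396, chrIV:9799429-9802226) and fat-3 (WBGene00001395, chrIV:9803023-9806119) stand on the plus strand with 796 bases between them. The pair fat-1 (WBGene00001393, chrIV:13315644-13318811) and fat-2 (WBGene00001394, chrIV:13323873-13326395) also stand on the plus strand, 5061 bases apart. The delta-9 genes are scattered: fat-6 (WBGene00001398, chrIV:11913692-11915687) and fat-7 (WBGene00001399, chrV:7151353-7153146) are on the minus strand, and fat-5 (WBGene00001397, chrV:17725004-17726818) is on the plus strand. On the opposite strand the annotation places twk-42 and the noncoding W06D12.8, both overlapping fat-5. The library kit keeps strand, and whether the counting used it is not given in the sources used here. At most 0.168% of the fat-5 fragments of a library were also compatible with another gene, and neither of these was the main such gene in any library. Sequence sharing was small: at most 0.2816% of the fragments of any desaturase in any library were also compatible with another gene, and no fragment was shared between fat-6 and fat-7.

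Per length, fat-2, fat-1 and fat-6 had the highest means of the 7 genes in each of the 8 parental groups, and fat-7 and fat-5 varied most between strains. In TPM, which scales by both transcript length and library size, the 8 parental means spanned 278.8 to 472.4 for fat-2, 235.6 to 298.2 for fat-1 and 149.2 to 325.1 for fat-6. They spanned 136.0 to 165.6 TPM for fat-4 and 55.69 to 91.52 TPM for fat-3. The widest spans belonged to fat-7, at 16.43 to 162.5 TPM, and fat-5, at 6.55 to 40.92 TPM. In CPM, which does not correct for length, the ratio of the highest to the lowest of the 8 parental means was 9.79 for fat-7 and 6.07 for fat-5, against 2.07 for fat-6, 1.56 for fat-3, 1.55 for fat-2, 1.27 for fat-4 and 1.24 for fat-1. Of the 16444 genes that passed the count filter, 88.3% had a smaller range of parental means on the log2 scale than fat-7 and 81.2% a smaller one than fat-5, but only 15.3% had a smaller one than fat-1. All 7 desaturases passed that filter, and all 7 differed among the 8 parental strains by edgeR's quasi-likelihood F test (the largest adjusted p, that of fat-4, was 4.92e-09), as did 88.1% of all genes tested.

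**Figure D1:**
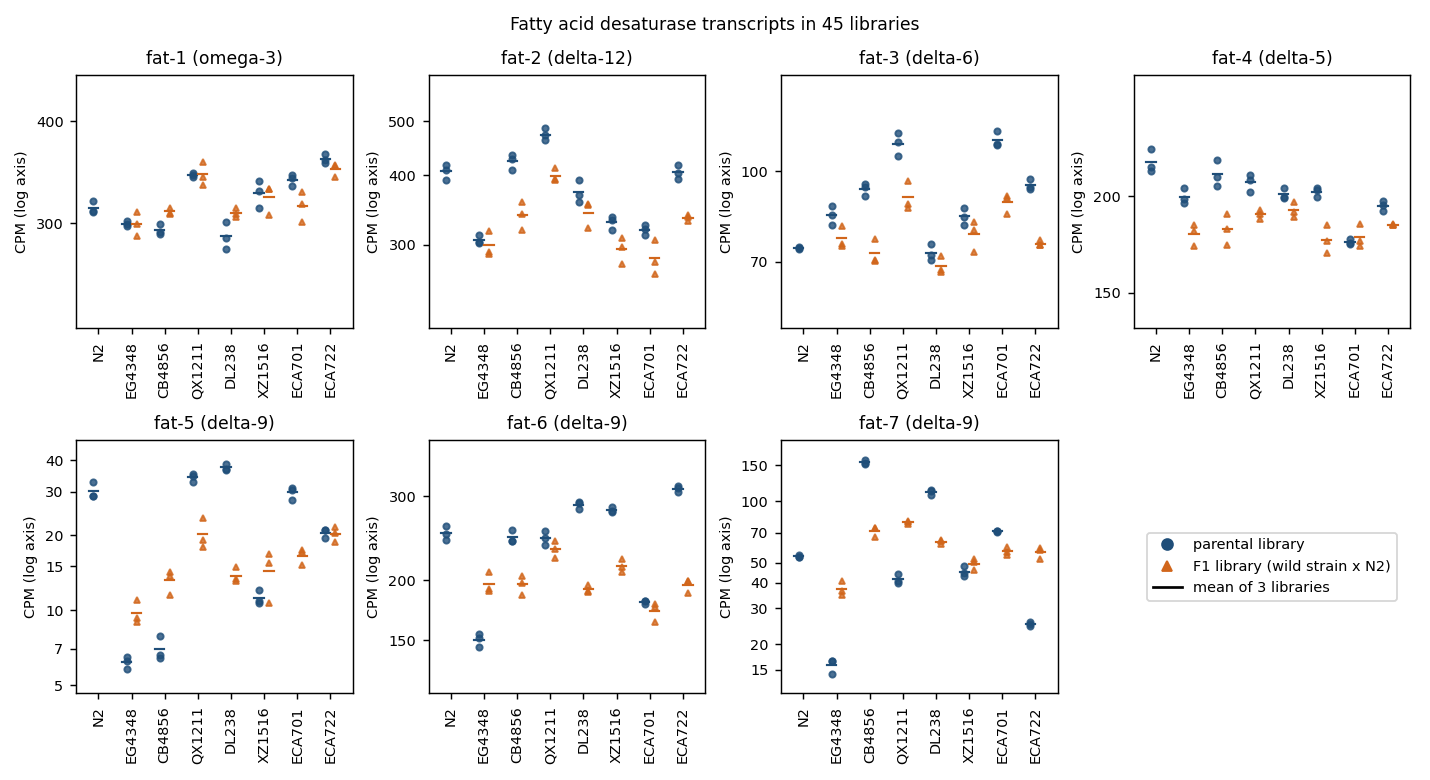
CPM of each desaturase in every library (vertical axes are logarithmic and differ between panels), with parental libraries as circles, F1 libraries as triangles and group means as bars. The parental values of fat-7 run from 14.38 CPM in EG4348 to 159.6 CPM in CB4856, while those of fat-1 stay between 279.5 and 364.6 CPM.

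A gene is called here where its Benjamini-Hochberg adjusted p over all 16444 genes was under 0.05 in edgeR's quasi-likelihood test of all 45 libraries, whose groups share 1 estimate of the spread. Between each wild strain and the libraries labelled N2, 39 of the 49 tests of the desaturases were called (17 higher, 22 lower), against 40.9% of the tests over all genes (21.4% higher, 19.5% lower). The median log2 fold change of the 49 tests was -0.04, beside 0.01 over all genes. Their median absolute log2 fold change was 0.198, while over all genes it was 0.229 (CB4856) to 0.326 (ECA701). The higher share of calls is therefore not a larger typical difference. In 41 of the 49 pairs of groups the 3 wild libraries all lay on one side of the 3 N2 libraries, which held for 49% of the pairs over all genes. All 7 contrasts use the same N2 libraries.

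The stearoyl-CoA desaturase gene fat-7 was called in all 7 wild strains, higher in 3 and lower in 4. The libraries labelled N2 had 54.53, 53.19 and 53.67 CPM. CB4856 had the most, with 154.5, 151.9 and 159.6 CPM, a log2 difference from N2 of 1.53 ± 0.06 (SE; adjusted p = 3.56e-23). DL238 followed with 107.0, 111.6 and 113.9 CPM (1.04 ± 0.06, adjusted p = 3.23e-18). ECA701 was the third strain above N2, and its 3 libraries were nearly identical. They had 71.58, 71.33 and 70.99 CPM (0.41 ± 0.06, adjusted p = 1.13e-07). The gap was wider in the deposited allele-aware totals, where 0.5 times the parental level was 44.37 CPM in ECA701 and 27.77 CPM in N2. At the other end, EG4348 had 16.57, 14.38 and 16.66 CPM, a log2 difference of -1.76 ± 0.06 (adjusted p = 2.94e-24), and ECA722 had 25.20, 25.82 and 24.63 CPM (-1.09 ± 0.06, adjusted p = 1.57e-18). Neither of these groups came near the N2 range. QX1211, with 39.97, 40.94 and 44.14 CPM, was modestly lower (-0.37 ± 0.06, adjusted p = 1.19e-06).

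XZ1516 had 44.65, 48.15 and 43.18 CPM of fat-7, a called difference of -0.25 ± 0.06 (adjusted p = 4.45e-04). Its sign depended on how reads were counted: with the deposited allele-aware totals the log2 difference was 0.02 (adjusted p = 0.803) and with fragments compatible with fat-7 alone it was 0.07 (adjusted p = 0.324), so no direction is drawn for that strain. In the order of the 8 parental means, from CB4856 and DL238 through ECA701, N2, XZ1516, QX1211 and ECA722 to EG4348, the ranges of neighbours overlapped only between XZ1516 and QX1211.

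The palmitoyl-CoA desaturase gene fat-5 fell in 4 wild strains and rose in 1. The libraries labelled N2 had 32.70, 28.92 and 28.83 CPM. EG4348 had 6.264, 5.792 and 6.493 CPM (log2 difference -2.28 ± 0.12, adjusted p = 1.06e-18). CB4856 had 7.864, 6.426 and 6.602 CPM (-2.11 ± 0.12, adjusted p = 1.75e-17). These strains overlapped each other and lay below all the rest, although CB4856 had the most fat-7 of all parental groups and EG4348 the least. XZ1516 was next, with 10.88, 12.06 and 10.65 CPM (-1.42 ± 0.11, adjusted p = 1.40e-13), and ECA722 had 21.08, 19.44 and 21.01 CPM (-0.55 ± 0.11, adjusted p = 4.75e-05). DL238, with 38.74, 37.05 and 36.79 CPM, was called higher (0.32 ± 0.11, adjusted p = 0.0163). That call was lost without DL238 replicate 1 (adjusted p = 0.0515), N2 replicate 2 (0.0633) or N2 replicate 3 (0.0694). QX1211 and ECA701 were not called, at 0.19 (adjusted p = 0.146) and -0.02 (adjusted p = 0.906).

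The second stearoyl-CoA desaturase gene, fat-6, moved less and was called in 5 strains. Against 243.5, 260.4 and 250.4 CPM in the libraries labelled N2, EG4348 had 151.5, 145.1 and 154.2 CPM (log2 difference -0.74 ± 0.04, adjusted p = 6.93e-18). ECA701 had 181.4, 181.5 and 178.7 CPM (-0.48 ± 0.04, adjusted p = 9.75e-13). Both strains lay wholly below N2. ECA722 had 314.9, 311.4 and 306.3 CPM (0.31 ± 0.04, adjusted p = 4.80e-08), the highest level, and DL238 (0.20) and XZ1516 (0.16) were also called higher. CB4856 and QX1211 were not called, with -0.03 (adjusted p = 0.597) and -0.04 (adjusted p = 0.481), and overlapped N2. The 3 delta-9 genes therefore did not share an order of strains: EG4348 was lowest for all of them, but ECA722, with the most fat-6, had the second lowest fat-7, and ECA701 was below N2 for fat-6 and above it for fat-7.

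Intestinal markers moved between strains as well. Of 7 such genes (elt-2, elt-7, ges-1, vha-6, ifb-2, act-5 and spp-1), 5 were higher than in N2 in CB4856 and in ECA722 and none lower, while in ECA701 1 was higher and 4 lower. In QX1211 4 were higher, in DL238 and in XZ1516 3, and none lower, and in EG4348 1 was higher and 1 lower. Over all genes 21.4% of such tests were higher and 19.5% lower. Their summed level was 893.3 CPM in CB4856, 835.0 in ECA722, 794.8 in DL238, 790.2 in QX1211, 780.4 in XZ1516, 749.3 in EG4348 and 608.0 in ECA701. It was 698.5 CPM in the libraries labelled N2, and none of the markers was at 0 in every library. The markers' part in the differences between strains was not tested. In RNA of whole animals, fewer cells of a type and less RNA per cell cannot be told apart.

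Summed over the 3 delta-9 genes in TPM, EG4348 had 172.2 ± 6.4 (SD, n = 3) and DL238 452.7 ± 6.7, with the libraries labelled N2 at 350.0 ± 6.7. The makeup of the sum differed between strains as well. In CB4856, whose sum was 417.2 ± 12.8 TPM, fat-7 supplied 38.96% of the delta-9 transcripts and fat-5 1.79%. In ECA722, whose sum was 375.2 ± 10.3 TPM, fat-7 supplied 7.29% and fat-6 86.65%. The largest share of fat-5 in a parental group was 11.25%, in QX1211.

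**Figure D2:**
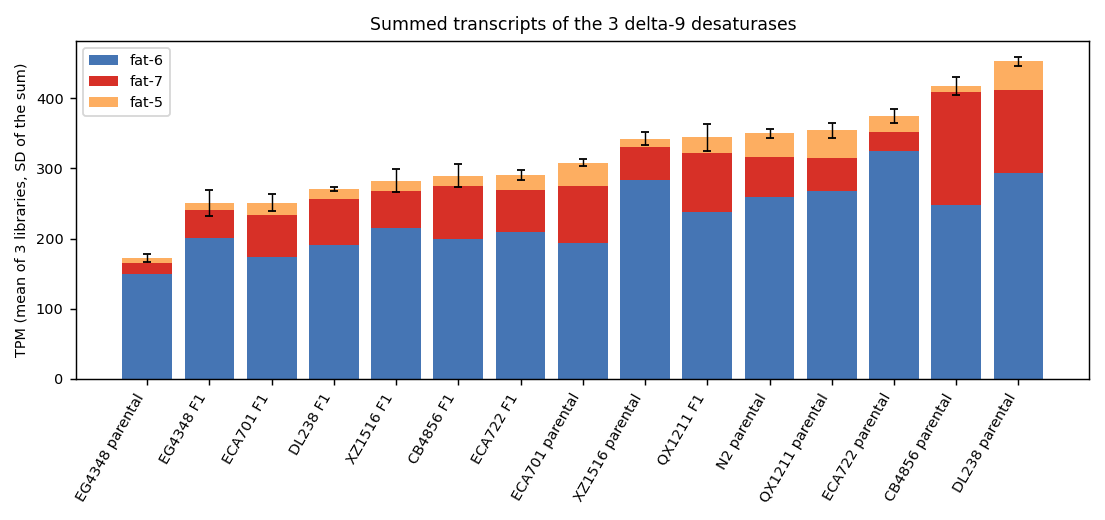
Summed TPM of fat-5, fat-6 and fat-7 in each of the 15 groups, ordered by the sum; stacked bars are means of 3 libraries and error bars the SD of the sum. Parental EG4348 is lowest at 172.2 TPM and parental DL238 highest at 452.7 TPM, and 6 of the 7 F1 groups lie between 251.0 and 291.2 TPM.

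The genes of the later steps differed by less than the delta-9 genes, each in its own pattern. The delta-6 desaturase gene fat-3 was higher in 6 strains and in none lower, which was the case for 4.72% of genes. The libraries labelled N2 had a mean of 73.86 ± 0.37 CPM (SD, n = 3), ECA701 113.2 ± 3.5 and QX1211 111.5 ± 4.9, with log2 differences of 0.62 ± 0.05 (SE; adjusted p = 2.42e-14) and 0.59 ± 0.05 (adjusted p = 8.62e-14). In DL238 fat-3 was not called (-0.03, adjusted p = 0.671). Its close neighbour fat-4, the delta-5 gene, was lower in 6 strains and higher in none, as were 3.86% of genes. The largest drop was in ECA701, from 221.1 ± 7.8 CPM in N2 to 174.4 ± 1.1 CPM (-0.34 ± 0.04, adjusted p = 2.09e-10), and CB4856 was not called (-0.05, adjusted p = 0.285). The smallest call for fat-4, in QX1211 (-0.09, adjusted p = 0.0446), was lost in 4 of the 6 fits that left out a library of that pair of groups.

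The delta-12 gene fat-2 was higher in QX1211 and lower in 4 strains. QX1211 had 473.4 ± 11.4 CPM and N2 406.6 ± 13.2 CPM (0.22 ± 0.05, adjusted p = 2.85e-04). EG4348 had 306.2 ± 5.1 CPM (-0.41 ± 0.05, adjusted p = 1.22e-08), ECA701 was lower by -0.35 and XZ1516 by -0.31. DL238 was called at -0.13 (adjusted p = 0.0382), a call lost without DL238 replicates 1 or 2 or N2 replicates 2 or 3. The omega-3 gene fat-1 was the steadiest: it was called higher in ECA722 (0.20 ± 0.03, adjusted p = 1.02e-05), QX1211 (0.13) and ECA701 (0.11) and lower in DL238 (-0.12) and CB4856 (-0.09, adjusted p = 0.0425). The CB4856 call was lost without CB4856 replicates 1 or 3 or any 1 of the N2 libraries, and the DL238 call without DL238 replicate 1 (adjusted p = 0.0599). The ECA701 call was lost with no count filter (0.06, adjusted p = 0.148), and with only the groups compared in the fit the calls of fat-1 in ECA701, CB4856 and DL238, fat-2 in DL238 and fat-4 in QX1211 and DL238 were lost (adjusted p = 0.0565 to 0.158).

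**Figure D3:**
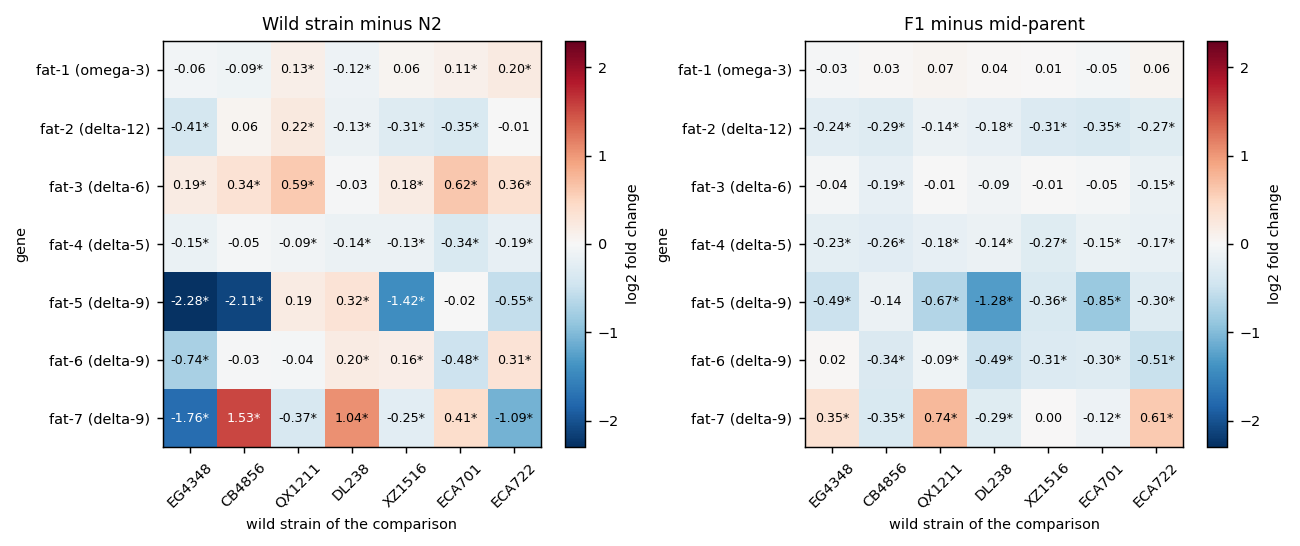
Log2 fold change of each desaturase in each wild strain against the libraries labelled N2 (left) and in each F1 against the mid-parent (right), by colour and printed value; a star marks adjusted p under 0.05 by edgeR's quasi-likelihood test. Values on the left reach -2.28 for fat-5 in EG4348 and 1.53 for fat-7 in CB4856, and on the right fat-2 and fat-4 are below 0 with a star in all 7 crosses.

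The F1 groups were set against their parents to ask whether a cross lies between them. The mid-parent is the mean of the wild parent's and N2's fitted values on the log2 scale. The mothers of the F1 carried a fog-2 mutation, whereas the growth protocol describes the parental N2 as selfed. All 7 F1 groups share such mothers, the removal of males by hand and comparison with the same N2 libraries. An effect of crossing that recurs in several crosses cannot be told apart from these shared features. Against the mid-parent, 34 of 49 tests were called, 31 of them lower, while over all genes 35.8% of the tests were called and 16.4% were called lower. The median absolute log2 difference of the 49 tests was 0.195, beside 0.180 (DL238) to 0.245 (ECA701) over all genes. Both fat-2 (-0.35 to -0.14) and fat-4 (-0.27 to -0.14) were lower in all 7 crosses, as were 3.36% of genes. The gene fat-5 was lower in 6, to -1.28 ± 0.10 in DL238 (adjusted p = 7.26e-13), and fat-6 in 6, to -0.51 ± 0.04 in ECA722 (adjusted p = 2.41e-14). Neither was called in the remaining cross, CB4856 for fat-5 (-0.14, adjusted p = 0.288) and EG4348 for fat-6 (0.02, adjusted p = 0.725). The fat-6 call in QX1211 (-0.09, adjusted p = 0.0264) was lost without N2 replicate 2, QX1211 F1 replicate 3 or QX1211 parental replicate 3, and with RLE scaling (adjusted p = 0.0520), only the groups compared (0.0595) or fragments of 1 gene (0.0574). The fat-5 calls in XZ1516 (-0.36) and ECA722 (-0.30) were lost without XZ1516 F1 replicate 2 (-0.18, adjusted p = 0.152) and ECA722 F1 replicate 1 (-0.26, adjusted p = 0.0684). The gene fat-1 was called in none of the 7 crosses in either direction (-0.05 to 0.07), with 1 at an unadjusted p under 0.05 and 2 called by DESeq2.

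Most of the 7 intestinal markers were also lower than the mid-parent. Of the 7, 5 or 6 were called lower in every cross and none was called higher, with median log2 differences of -0.36 to -0.19. Over all genes 16.4% of the tests against the mid-parent were called lower. Their summed level was 597.0 CPM (EG4348 F1) to 710.4 CPM (QX1211 F1) in the F1 groups and 608.0 to 893.3 CPM in the parental groups. Their part in the F1 results was not tested. The deposited F1 files carry the wild parent's transcript lengths for 31973 of 31973 transcripts, so F1 reads appear to have been set against the wild parent's transcriptome; with the allele-aware totals, which use both parents' transcripts, 34 of the 49 tests against the mid-parent were called as well, with fat-7 in ECA701 lost (-0.08) and fat-1 in ECA701 gained (adjusted p = 0.0466).

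Relative to N2 itself, 35 of 49 F1 tests were called, against 38.3% over all genes, and 28 were lower, against 19.1%. The genes fat-4 (-0.33 to -0.21), fat-5 (-1.63 to -0.57) and fat-6 (-0.54 to -0.11) were each lower in all 7 crosses, which was so for 5.18% of genes; the fat-6 call in QX1211 was lost without N2 replicate 2 (-0.09, adjusted p = 0.124) or QX1211 F1 replicate 3 (-0.08, adjusted p = 0.141). Relative to the wild parent, 33 of 49 were called, against 35.6% over all genes. Median absolute log2 differences were 0.268 from N2 and 0.235 from the wild parent. Over all genes they were 0.239 (CB4856) to 0.321 (ECA701) and 0.177 (DL238) to 0.300 (QX1211). The F1 was called below both parents in 15 of the 49 pairs of gene and cross, against 6.08% over all genes, in 4 crosses each for fat-2, fat-4 and fat-6 and in 3 for fat-5. It was above both in 1, against 5.36% over all genes.

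Of the F1 groups below both parents, DL238 showed the widest gap for fat-5. Its F1 libraries had 14.89, 13.40 and 13.10 CPM, while every library of DL238 and of N2 had at least 28.83 CPM. The F1 was lower than DL238 by -1.44 ± 0.11 (adjusted p = 1.84e-13) and than N2 by -1.13 ± 0.11 (adjusted p = 2.73e-10). The ECA701 F1 was similar, with 17.17, 15.14 and 17.40 CPM, below all libraries of both its parents. For fat-6, the ECA722 F1 had 199.8, 188.2 and 199.3 CPM, lower than ECA722 by -0.67 ± 0.04 (adjusted p = 2.00e-16) and than N2 by -0.36 ± 0.04 (adjusted p = 4.05e-09).

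The gene fat-7 did not follow the other delta-9 genes in the F1. Against the mid-parent it was higher in QX1211 (0.74 ± 0.05, adjusted p = 3.08e-15), ECA722 (0.61 ± 0.05, adjusted p = 1.26e-12) and EG4348 (0.35 ± 0.05, adjusted p = 1.22e-06). It was lower in CB4856 (-0.35 ± 0.05, adjusted p = 6.72e-07) and DL238 (-0.29 ± 0.05, adjusted p = 2.57e-05), and XZ1516 was not called (0.00, adjusted p = 0.953). ECA701 was called at -0.12 (adjusted p = 0.0352), a call lost without ECA701 F1 replicates 1 or 2, ECA701 parental replicate 1 or N2 replicate 1, and under 6 other settings (-0.10 to -0.06). The 7 F1 means spanned 37.32 to 78.90 CPM, a ratio of 2.11, beside a ratio of 9.79 for the 8 parental means; all F1 groups share N2 as a parent. The QX1211 F1 stood out, with 77.49, 79.43 and 79.79 CPM, above every library of QX1211 and of N2. In the ECA722 F1, with 58.76, 52.15 and 57.67 CPM, fat-7 was near the 53.19 to 54.53 CPM of N2 (0.06, not called, adjusted p = 0.416) although the wild parent had 24.63 to 25.82 CPM.

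Within an F1 animal both alleles are in the same nuclei, so an allelic difference is by convention ascribed to sequence near the gene (cis), and a parental difference that the alleles do not show to factors acting from elsewhere (trans). In every cross the wild allele came from the father and the N2 allele from the mother. Allele and parent of origin therefore cannot be told apart here. Alleles were compared by the deposited allele-level expected counts, in gene-by-cross pairs where F1 libraries averaged 10 or more allele-specific reads, meaning reads that fit 1 allele of 1 gene. That left 34 of 49 pairs: all 7 crosses for fat-2, fat-5 and fat-7, 6 for fat-3, 4 for fat-1, 2 for fat-4 (QX1211 and XZ1516) and 1 for fat-6 (ECA722). Read assignment was clean where it could be checked. In the 21 wild parental libraries, 27 desaturase reads were N2-specific and 179251 wild-specific, and in the libraries labelled N2, 5 reads were specific to QX1211 and 35775 to N2.

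The alleles differed in 7 of the 34 tests, against 11.6% over all genes and crosses. These were 3 for fat-7, 3 for fat-5 and 1 for fat-4, and none for fat-1, fat-2, fat-3 or fat-6. Of the latter genes 3 tests had an unadjusted p under 0.05 in edgeR (fat-1 in ECA701 and fat-3 and fat-6 in ECA722), and with reads of 1 allele of 1 gene in place of expected counts fat-1 was called in ECA701 and ECA722. The share of wild-specific reads of fat-2 lay between 47.95% and 54.95% in all 21 F1 libraries.

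In the ECA722 cross the fat-7 reads came almost wholly from the N2 allele. The 3 F1 libraries had 172, 136 and 115 ECA722-specific reads against 3085, 3046 and 1505 N2-specific reads, a wild share of 5.28%, 4.27% and 7.10%. The log2 ratio of the wild to the N2 allele was -4.13 ± 0.17 (SE; edgeR, adjusted p = 2.17e-04). The parental libraries of ECA722 gave 3999 ECA722-specific reads of fat-7 and 0 N2-specific ones, so reads of that allele were recognised when it was alone. The low wild share was seen in all 3 libraries. In XZ1516 the wild allele prevailed, with shares of 79.38%, 82.02% and 79.73% (2.04 ± 0.08, adjusted p = 5.23e-05). In ECA701 the shares were 74.0%, 75.62% and 74.24% (1.56 ± 0.07, adjusted p = 2.09e-04). In CB4856, QX1211 and DL238 the shares of fat-7 lay between 45.76% and 53.17% and no difference was called. EG4348, with 38.41% to 44.91%, was not called (-0.48 ± 0.11, adjusted p = 0.0667), though it was under 3 other settings of the test.

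**Figure D4:**
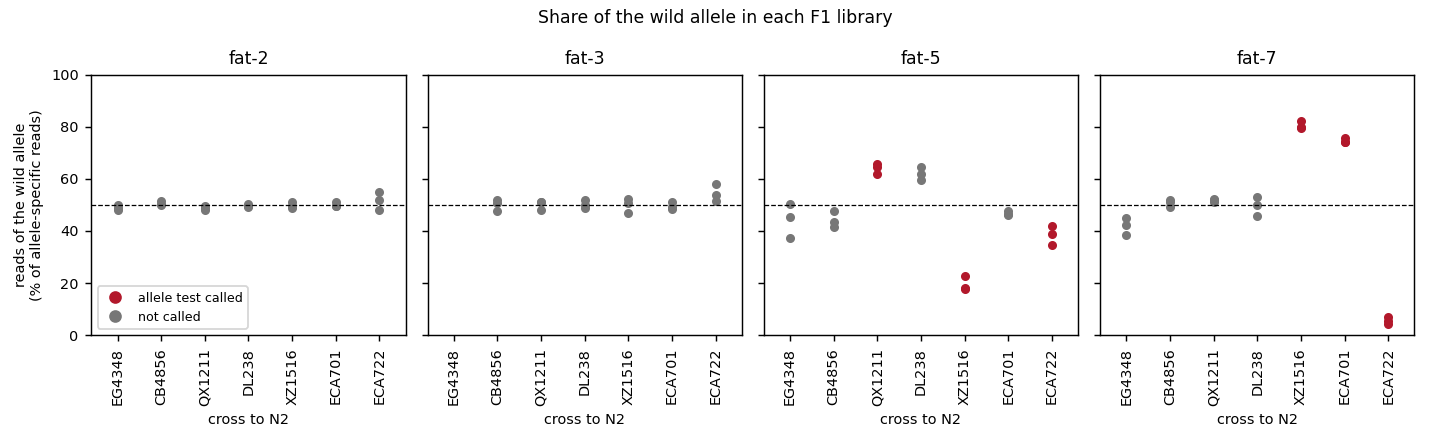
Percent of allele-specific reads that carry the wild allele in each F1 library, for fat-2, fat-3, fat-5 and fat-7 by cross; red marks crosses with a called allelic difference and the dashed line 50%. Shares of fat-2 stay between 47.95% and 54.95%, while those of fat-7 run from 4.27% in ECA722 to 82.02% in XZ1516.

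For fat-5 the wild allele gave 22.70%, 17.94% and 17.56% of allele-specific reads in the XZ1516 F1 (log2 ratio -2.06 ± 0.16, adjusted p = 6.45e-04). In ECA722 it gave 34.75%, 38.98% and 41.87% (-0.68 ± 0.14, adjusted p = 0.0381), and in QX1211 64.54%, 61.77% and 65.82% (0.83 ± 0.13, adjusted p = 0.0124). The calls in ECA722 and QX1211 were lost without ECA722 F1 replicates 1 (adjusted p = 0.178) or 2 (0.193) and without QX1211 F1 replicates 1 (0.0941) or 3 (0.0925). DL238, at 59.64% to 64.41%, missed the threshold (0.71 ± 0.16, adjusted p = 0.0629), though it was called under the same 3 other settings as fat-7 in EG4348 (adjusted p = 4.68e-07 to 0.0238). For fat-4 in QX1211 the shares were 55.35%, 54.31% and 54.98% (0.28 ± 0.04, adjusted p = 0.0117), lost without F1 replicates 1 (0.0920) or 3 (0.0857).

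How far the parental log2 ratio departed from the allelic one (the difference of ratios) was then tested over the 9 libraries of each cross, its F1 and both parents. The parental ratio in this test came from the allele-aware totals. It can therefore differ from the log2 differences between strains given above, which came from other counts. It was called in 21 of 34 tests, against 15.1% over all genes and crosses. The gene fat-7 was called in all 7 crosses. In CB4856 and DL238 the parents differed by 1.53 and 1.04 in the contrasts above, while the alleles were near equal at 0.05 and -0.02. The difference of ratios there was 1.45 ± 0.08 (adjusted p = 4.20e-07) and 1.03 ± 0.11 (adjusted p = 1.26e-04). EG4348 (-1.31 ± 0.12, adjusted p = 9.31e-05) and QX1211 (-0.50 ± 0.08, adjusted p = 1.92e-03) were called in the other direction, also without a called allelic difference. In the 3 crosses with unequal alleles the difference of ratios opposed the alleles: 2.95 ± 0.15 in ECA722 (adjusted p = 9.18e-07), -1.98 ± 0.09 in XZ1516 (adjusted p = 5.66e-08) and -0.88 ± 0.07 in ECA701 (adjusted p = 1.03e-05). The allelic ratio is subtracted to form the difference of ratios, so these opposite signs are not independent of it.

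The level of each allele was also compared between F1 and parent. Set beside 0.5 times each parent's level, in allele-aware CPM, the N2 allele was at 51.48 ± 1.78 (SD, n = 3) in the ECA722 F1 against 27.77 ± 0.23 in N2, and the ECA722 allele at 3.05 ± 0.91 against 12.07 ± 0.20 in its own strain. The N2 allele was thus at 1.85 times and the wild allele at 0.25 times the reference level. In the XZ1516 F1 the N2 allele was at 11.26 ± 1.39 and the wild allele at 45.97 ± 1.87, against 27.25 ± 1.22 from the wild parent. In that cross the N2 allele was low and the wild allele high. In the QX1211 F1 both alleles were higher, at 1.84 times for the wild and 1.33 times for the N2 allele. In the CB4856 F1 the wild allele was at 0.458 times and the N2 allele at 1.23 times, which left them nearly equal at 35.31 ± 3.45 and 34.14 ± 1.79.

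**Figure D5:**
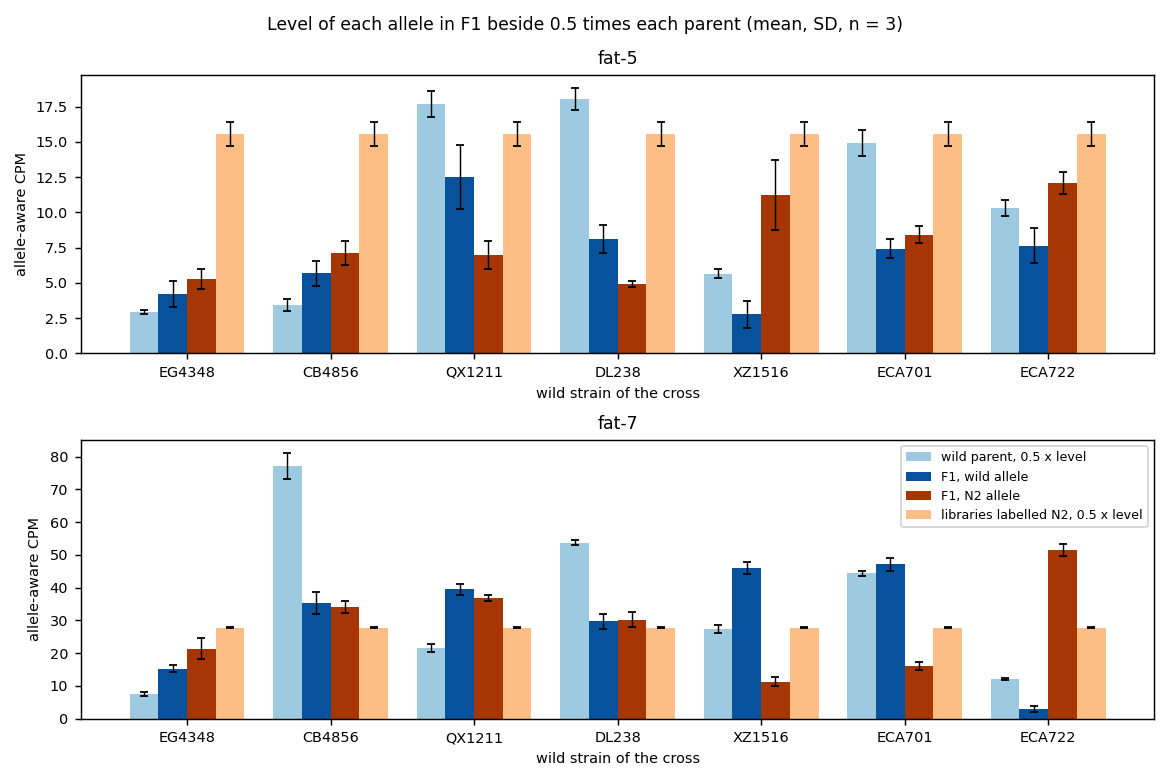
Allele-aware CPM of the wild and the N2 allele of fat-5 (top) and fat-7 (bottom) in each F1, beside 0.5 times the level of each parent; bars are means and error bars SD of 3 libraries. The N2 allele of fat-7 is at 51.48 in the ECA722 F1 and at 11.26 in the XZ1516 F1, while 0.5 times the N2 level is 27.77.

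The N2 allele of fat-5 was below 0.5 times its parental level of 15.57 ± 0.86 in every cross, at 0.317 times in DL238 to 0.776 times in ECA722. In EG4348 and CB4856, whose own levels were low, the wild allele was at 1.45 and 1.64 times its reference. The allelic ratios there had the sign of the parental difference but were far smaller and not called, at -0.34 (adjusted p = 0.430) and -0.33 (adjusted p = 0.337), although CB4856 was called with reads of 1 allele of 1 gene (-0.33, adjusted p = 0.0296). The difference of ratios was -1.98 ± 0.19 (adjusted p = 1.07e-04) in EG4348 and -1.82 ± 0.17 (adjusted p = 5.05e-05) in CB4856. QX1211 (-0.67 ± 0.11, adjusted p = 2.76e-03) and XZ1516 (0.67 ± 0.15, adjusted p = 9.99e-03) were called too. In ECA722 the alleles (-0.68) and the parents (-0.55) differed alike, with a difference of ratios of 0.10 ± 0.13 (adjusted p = 0.657).

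For the later steps the difference of ratios was called for fat-2 in EG4348 (-0.38), QX1211 (0.27), XZ1516 (-0.32) and ECA701 (-0.39), with alleles at most 0.07 apart on the log2 scale in those crosses. It was called for fat-3 in QX1211 (0.57 ± 0.07, adjusted p = 5.90e-04), ECA701 (0.60 ± 0.07, adjusted p = 1.62e-04) and CB4856 (0.30 ± 0.08, adjusted p = 0.0470). The CB4856 call was lost in 8 of the 9 fits that left out a library. It was called for fat-4 in QX1211 (-0.39) and XZ1516 (-0.34), the latter lost in 5 of 9 such fits, and for fat-6 in ECA722 (0.46 ± 0.06, adjusted p = 9.96e-04). None of the 4 tests of fat-1 was called (lowest unadjusted p 0.208).

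The rest of the pathway was described by 6 lists of genes in the contrasts of wild strains with N2. Of 14 synthesis and elongation genes, 24 of 98 tests were higher and 24 lower (median 0.02), a called share of 49% beside the 40.9% over all genes. In this list pod-2, the acetyl-CoA carboxylase that makes malonyl-CoA, was higher in all 7 strains (0.24 to 0.46), and elo-6, an elongase of branched-chain fatty acids, was lower in 6 (to -0.75 in ECA701). Of 3 genes for the electron donors that desaturases need, 2 of 21 tests were higher and 7 lower (median -0.08), a called share of 42.9% against 40.9%. The cytochrome b5 gene cytb-5.2 was lower in 3 strains, to -0.19 in ECA701, and hpo-19 was higher in 2 and lower in 1.

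Among 12 genes known to act on the delta-9 desaturases, 34 of 84 tests were higher and 5 lower (median 0.08), a called share of 46.4% against 40.9%. Here paqr-2, an adiponectin receptor relative that acts on membrane fluidity, was higher in 6 strains, to 0.66 in ECA722. The transcription factor gene pqm-1 was higher in 6 as well, to 0.85 in QX1211. Of 16 beta-oxidation genes, which break fatty acids down, 22 of 112 tests were higher and 64 lower (median -0.22), a called share of 76.8% against 40.9%. The acyl-CoA synthetase gene acs-2, a known NHR-49 target like fat-7 and fat-5, was called in all 7 strains, from -2.85 in DL238 to 2.39 in ECA701, and ech-6, an enoyl-CoA hydratase gene, was lower in all 7 (-0.86 to -0.16).

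Of 6 genes that act in the oxygenation of polyunsaturated fatty acids or on its products, 9 of 42 tests were higher and 17 lower (median -0.15), a called share of 61.9% against 40.9%. The cytochrome P450 gene cyp-13A12 was higher in 3 strains and lower in 3, from -1.49 in XZ1516 to 1.11 in CB4856, and the epoxide hydrolase gene ceeh-1 was higher in 5, to 0.81 in ECA722. Of 13 phospholipid and storage genes, 31 of 91 tests were higher and 25 lower (median 0.07), a called share of 61.5% against 40.9%. The methyltransferase gene pmt-2 of phosphatidylcholine synthesis was lower in 6 strains, to -0.54 in ECA701, and the lipid droplet perilipin gene plin-1 was higher in all 7 (0.17 to 0.42).

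Likeness to other genes was measured by Pearson's correlation of the 15 group means of log2 CPM, as a description of points that share libraries and controls. The closest genes were gcy-12 (r = 0.901) and B0285.6 (0.893) for fat-1, fard-1 (0.936) and Y82E9BL.6 (0.913) for fat-2, and camt-1 (0.910) and F28A10.13 (0.907) for fat-3. They were Y79H2A.2 (0.939) and C39H7.4 (0.922) for fat-4, and Y53G8B.1 (0.878) and ZK686.6 (0.874) for fat-5. For fat-6 they were rabr-1 (0.934) and fbxb-99 (0.923), and for fat-7 K07A1.4 (0.859) and Y52E8A.6 (0.812), so fat-7 had the least similar closest gene of the 7. The 7 desaturases were left out of this ranking, so it does not show how alike they were to each other.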

How the data were processed

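RNA-seq totals per transcript were estimated with kallisto, per the submitters' processing notes, and deposited as estimated (expected) counts and TPM; Salmon 1.4, Trimmomatic 0.39, FastQC, DESeq2 1.42.0 and the ce11 build are named there too. The authors also deposited expected counts per allele and Salmon equivalence classes. Kallisto counts were summed per gene with the WBcel235 annotation, rounded and scaled by TMM, and 16444 genes passing filterByExpr were tested in 1 quasi-likelihood fit of 45 libraries (edgeR 4.0.16, R 4.3.3, 30 residual degrees of freedom). CPM are TMM-scaled except allele-aware CPM. Alleles were tested per cross with a term for the library; their difference from the parents used 9 libraries. DESeq2 1.42.0 was an alternative. The tests were tried on simulated data.

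Replicate pairs differed beyond counting noise (chi-square per degree of freedom 3.04 to 46.1). The highest values were those of replicate 1 of the libraries labelled N2, the shared reference. It gave 46.1 against replicate 3 and 39.7 against replicate 2, while N2 replicates 2 and 3 gave 7.33. RNA was extracted in 3 batches, each with 1 replicate per group per the labels' protocols, which do not tie batches to replicate numbers. Members and gene lists were chosen with earlier results of these data known. Genes named are the 7 members, 2 per list with the most calls, and the 2 genes outside the 7 members most correlated with each. Of 8 listed intestinal markers, opt-2 matched no gene name. An allele-specific version of the difference from the parents could not be formed, since the libraries labelled N2 were set against QX1211 alleles alone, and was replaced after seeing the data.

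Other marker lists, as summed CPM of group means, spanned 159 to 185 (hypodermis), 1009 to 1766 (body wall muscle), 5728 to 7269 (germline), 4.85 to 31.8 (sperm), 0.829 to 3.53 (embryo) and 170.0 to 205 (neurons). The germline sum was lowest in the libraries labelled N2. It was 6724 (XZ1516) to 7269 (ECA701) in the F1 groups and 5915 (QX1211) to 6826 (EG4348) in the wild parental groups. Its part in the F1 results was not tested.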

Additional observations from a re-analysis of the deposited data

Results flagged for a closer look

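Effects that went in opposite directions in different strains were compared by a test of the difference itself, in the same edgeR fit, between the highest and the lowest called strain; these pairs were picked as extremes. Against the libraries labelled N2, fat-7 in CB4856 and EG4348 differed by 3.29 on the log2 scale (adjusted p = 2.31e-32). The same comparison gave 2.6 for fat-5 in DL238 and EG4348 (adjusted p = 1.54e-20), 1.05 for fat-6 in ECA722 and EG4348 (adjusted p = 9.12e-23), 0.63 (0.628) for fat-2 in QX1211 and EG4348 (adjusted p = 1.19e-13) and 0.31 (0.313) for fat-1 in ECA722 and DL238 (adjusted p = 1.35e-09). Among the F1 groups, the deviation of fat-7 from the mid-parent differed by 1.09 between QX1211 and CB4856 (adjusted p = 1.86e-16).

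Allelic log2 ratios of opposite sign were seen in every F1 library of the crosses concerned, but the differences between crosses were not tested. They came to 6.17 for fat-7 between XZ1516 and ECA722 and to 2.89 for fat-5 between QX1211 and XZ1516.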

How the results depend on the processing

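Counts of calls stayed within 34 to 40 of 49 for wild strains against N2 (39 in the report), 33 to 37 for F1 against N2 (35), 31 to 35 for F1 against the wild parent (33) and 32 to 35 against the mid-parent (34) under DESeq2, RLE scaling, no count filter, a fit of only the groups compared, allele-aware totals, fragments of 1 gene and the replicate block; all 7 genes differed among strains under each. Allelic calls rose from 7 to 9 with a minimum of 50 reads or without the library term, and to 12 with reads of 1 allele of 1 gene; the cause was not tested. Calls of the difference from the parents were 20 to 22 (21). Leaving out 1 library gave 35 to 39, 34 to 37, 31 to 36, 33 to 34, 7 to 7, 5 to 8 and 19 to 22 calls, in the order above, with strains, alleles and the difference from the parents last.

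The sign of fat-7 in XZ1516 turned: against N2 the log2 difference was 0.0189 with allele-aware totals and 0.0678 with fragments of 1 gene, and F1 against N2 was 0.154 with fragments of 1 gene (adjusted p = 0.0203; -0.12, not called, in the report). For fat-7 in ECA701, F1 against N2 was not called in the report. It was called higher with allele-aware totals (0.263, adjusted p = 8.17e-05) and with fragments of 1 gene (0.309, adjusted p = 1.29e-05). The cause was not tested in either strain.

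Replicate numbers were not taken to pair the samples in the main fit. The labels' protocols do not tie the extraction batches to these numbers. Deviations were correlated above 0.1 in 90 of 315 same-numbered pairs of libraries (median 0.0254) and in 110 of 630 differently numbered pairs (median -0.015). Of 45 libraries, 25 were closest to their own number, a hint of pairing from the data and not from the design. These values cannot settle whether the numbers mark the batches. With the replicate block, calls were 39, 35, 35 and 34 for the 4 contrasts and 20 for the difference from the parents, where fat-3 in CB4856 was lost (adjusted p = 0.0770); fat-2 in DL238 and fat-4 in ECA722 were gained for F1 against the wild parent.

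For 15 of 49 pairs no allele test was made, since on average at most 1 read per F1 library fitted a single allele.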
